A study of Mus musculus with 16 samples.

Results

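Neuronatin (Nnat) and 9 other imprinted genes with known roles in growth (Peg3, H19, Igf2, Dlk1, Meg3, Mest, Cdkn1c, Grb10 and Plagl1) were followed across 4 mouse tendons. The 10 genes were taken by name from a table of read counts for 41204 genes, and all 10 passed the filter on low counts. Nnat was chosen by its measured counts, which are high in hindlimb tendons in these same libraries, so its levels are given as a description with no test. The other 9 were taken for being imprinted, and were tested within a fit over all 23754 genes that passed the filter.

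The groups were the Patellar tendon, the Achilles tendon, the Supraspinatus tendon and the forepaw flexor tendon (Flexor) of C57BL/6J mice, an inbred strain, with 4 libraries from 4 numbered mice each. All groups share this strain, and the sources used here name no treatment, allele or age. The Patellar tendon at the knee and the Achilles tendon at the heel belong to the hindlimb, and the Supraspinatus tendon at the shoulder and the Flexor tendon belong to the forelimb; this grouping follows from anatomy. Levels are in CPM, read counts relative to the size of the library, scaled by the trimmed mean of M values (TMM), and a change is the log2 ratio of 2 groups from edgeR with its standard error (SE), called when the Benjamini-Hochberg adjusted p over all genes was under 0.05.

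Imprinted genes are read mainly from the copy inherited from the mother or mainly from the copy inherited from the father, depending on DNA methylation set in the germ line and kept at control regions. Many of them act on growth before birth, on the placenta and on fat and muscle: as a rule, paternally expressed genes such as Igf2 favour growth and maternally expressed genes such as Cdkn1c and Grb10 restrain it. Many are turned down in most mouse tissues after birth. Nnat, which is paternally expressed, encodes a small membrane protein of the endoplasmic reticulum studied in neurons, pancreatic islets and adipocytes, and lies inside an intron of Blcap on the opposite strand.

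The 250 bases before the annotated start are shown for Nnat, for Dlk1, Mest and Plagl1, whose levels were closest to it in pattern among these genes, and for Meg3, which shares a domain with Dlk1. They come from RefSeq on GRCm38.p6, all on the plus strand, and capitals mark TGCCGC on either strand (read as GCGGCA on the other), the letters bound by ZFP57, a zinc finger protein that maintains imprints in the early embryo.
Nnat, chr2:157559828-157560077: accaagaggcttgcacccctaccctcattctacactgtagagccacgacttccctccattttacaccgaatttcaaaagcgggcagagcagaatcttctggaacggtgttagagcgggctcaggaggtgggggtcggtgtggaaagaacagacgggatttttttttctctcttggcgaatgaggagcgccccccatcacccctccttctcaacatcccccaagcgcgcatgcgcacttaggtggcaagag
Dlk1, chr12:109452573-109452822: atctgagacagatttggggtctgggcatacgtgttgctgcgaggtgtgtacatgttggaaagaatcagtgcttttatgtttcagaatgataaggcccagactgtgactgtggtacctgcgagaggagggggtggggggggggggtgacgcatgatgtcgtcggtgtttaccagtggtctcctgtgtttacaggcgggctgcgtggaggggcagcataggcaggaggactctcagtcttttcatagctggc
Mest, chr6:30737800-30738049: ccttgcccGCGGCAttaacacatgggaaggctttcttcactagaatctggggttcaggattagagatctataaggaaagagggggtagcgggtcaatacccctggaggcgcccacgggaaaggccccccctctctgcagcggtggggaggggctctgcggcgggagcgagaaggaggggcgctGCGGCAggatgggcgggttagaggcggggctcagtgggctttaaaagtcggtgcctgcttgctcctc
Plagl1, chr10:13090582-13090831: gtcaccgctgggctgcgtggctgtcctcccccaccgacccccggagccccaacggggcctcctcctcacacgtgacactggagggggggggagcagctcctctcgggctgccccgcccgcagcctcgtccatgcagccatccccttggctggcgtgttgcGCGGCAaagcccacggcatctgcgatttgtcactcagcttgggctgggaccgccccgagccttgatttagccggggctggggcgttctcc
Meg3, chr12:109540746-109540995: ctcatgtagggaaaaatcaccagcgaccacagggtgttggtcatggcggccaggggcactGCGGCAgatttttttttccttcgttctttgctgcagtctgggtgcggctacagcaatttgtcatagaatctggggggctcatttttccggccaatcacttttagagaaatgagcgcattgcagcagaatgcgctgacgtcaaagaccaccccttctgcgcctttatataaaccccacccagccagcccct
Of the 10 genes, 8 had at least 1 such window in the table, 15 windows in all. TGCCGC on either strand was in 4 of the 15 windows (the pair of near-identical Mest windows, 1 of Plagl1 and 1 of Meg3) and in 8.68% of all 32851 windows. The windows shown for Nnat and Dlk1 hold none. The window of Nnat holds 12 CG pairs, that of Plagl1 19, that of Mest 14, that of Meg3 10 and that of Dlk1 8, against a median of 6 over all windows. A match describes the letters in these windows and no more.

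Nnat was high in both hindlimb tendons and low in both forelimb tendons. It measured 253, 670, 710 and 429 CPM in Patellar replicates 1 to 4, 453, 442, 249 and 681 CPM in Achilles replicates 1 to 4, 1.29, 5.81, 2.22 and 1.59 CPM in Supraspinatus replicates 1 to 4, and 10.9, 15.7, 4.83 and 5.70 CPM in Flexor replicates 1 to 4. The lowest hindlimb library, Achilles replicate 3, was above the highest forelimb library, Flexor replicate 2. The means, from high to low, were 516 ± 215 CPM in Patellar, 456 ± 177 CPM in Achilles, 9.28 ± 5.04 CPM in Flexor and 2.73 ± 2.09 CPM in Supraspinatus (SD, n = 4 each). The ranges of Patellar and Achilles overlapped, as did those of Supraspinatus and Flexor. Per kilobase of exon, Nnat averaged 282 CPM in Patellar, 249 CPM in Achilles, 1.49 CPM in Supraspinatus and 5.07 CPM in Flexor. On this per-kilobase scale its level was the highest of the 10 genes in Patellar and Achilles, while in Supraspinatus H19, Grb10, Cdkn1c, Meg3, Peg3 and Mest were above it and in Flexor H19, Grb10 and Peg3 were.

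As a description, the log2 levels of the hindlimb tendons averaged 6.59 ± 0.43 (SE) above those of the forelimb tendons. This is a 96.5-fold ratio between limbs of the geometric means of the fitted tendon levels, not of arithmetic means over a limb. By pair, the log2 ratio was 5.80 for Patellar minus Flexor, 7.57 for Patellar minus Supraspinatus, 5.62 for Achilles minus Flexor and 7.39 for Achilles minus Supraspinatus. Supraspinatus replicate 2, the highest of its tendon, weighed on these values: without it the log2 ratio was 8.23 for Patellar minus Supraspinatus, 8.06 for Achilles minus Supraspinatus and -2.44, against -1.77, for Supraspinatus minus Flexor. Within the hindlimb the log2 ratio of Patellar minus Achilles was 0.18 ± 0.48 (SE), with an interval of -0.83 to 1.19. These comparisons share libraries and are not independent of each other.

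**Figure D1:**
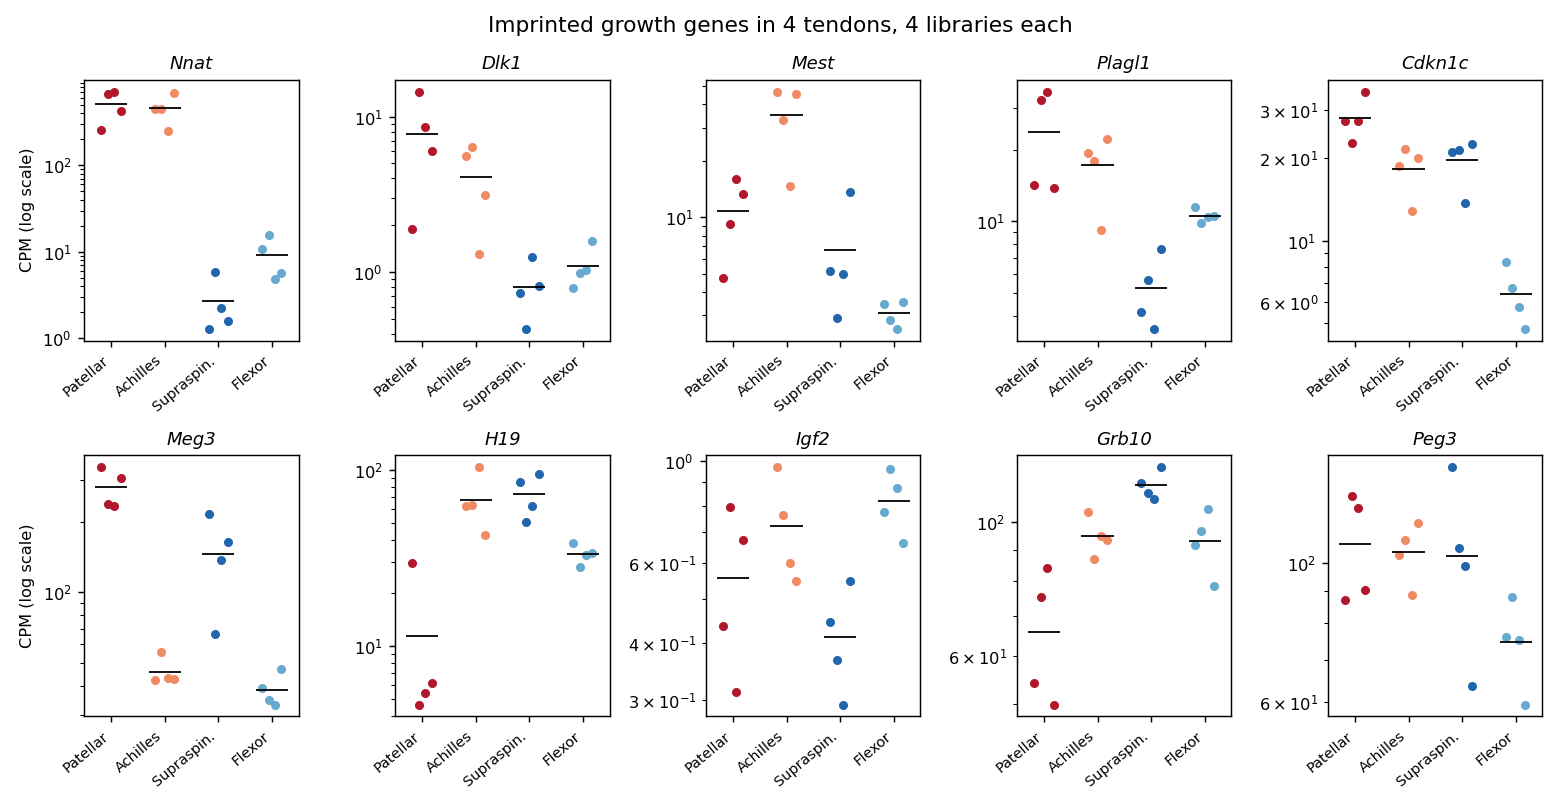
Level of each of the 10 genes in CPM (log axis, a separate scale per gene) for 4 tendons. Points are the 4 libraries of a tendon and the black line is their mean; Nnat sits at 249 to 710 CPM in all 8 hindlimb libraries and at 1.29 to 15.7 CPM in all 8 forelimb libraries, and each other gene overlaps between limbs.

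None of the other 9 genes separated the limbs in all 16 libraries as Nnat did. Over all genes tested, 3.02% had all 8 hindlimb libraries above all 8 forelimb libraries, and 3.94% had all 8 below. Dlk1 and Plagl1 each had 7 of 8 hindlimb libraries above every forelimb library, Mest had 5, Cdkn1c and Meg3 4 each, H19 and Igf2 1 each, and Peg3 and Grb10 0. In the test of hindlimb minus forelimb, 5 of the 9 rose (Dlk1, Mest, Plagl1, Cdkn1c and Meg3), 1 fell (Grb10) and 3 did not pass (Peg3, H19 and Igf2). Over all genes 23.9% were called higher and 24.0% lower, 47.9% in all.

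The counts differed by pair of tendons. In Patellar minus Flexor 6 of the 9 rose and 2 fell, where 24.2% of all genes were called higher and 26.2% lower, 50.3% in all. In Patellar minus Supraspinatus 3 rose and 2 fell, where 26.8% of all genes were called higher and 26.4% lower, 53.3% in all. In Achilles minus Flexor 3 rose and 0 fell, where 9.72% of all genes were called higher and 6.5% lower, 16.2% in all. In Achilles minus Supraspinatus 3 rose and 1 fell, where 16.7% of all genes were called higher and 16.9% lower, 33.6% in all. Within limbs 2 rose and 3 fell in Patellar minus Achilles, where 17.4% of all genes were called higher and 21.1% lower, and 2 rose and 2 fell in Supraspinatus minus Flexor, where 14.7% were called higher and 12.4% lower. Dlk1 was the only one of the 9 called higher in all 4 of these pairs. The median log2 fold change over the 9 genes was 0.60 in hindlimb minus forelimb, 1.17 in Patellar minus Flexor, 0.51 in Patellar minus Supraspinatus, 0.70 in Achilles minus Flexor and 0.021 in Achilles minus Supraspinatus, against 0.035, -0.0095, 0.081, -0.0004 and 0.038 over all genes tested.

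**Figure D2:**
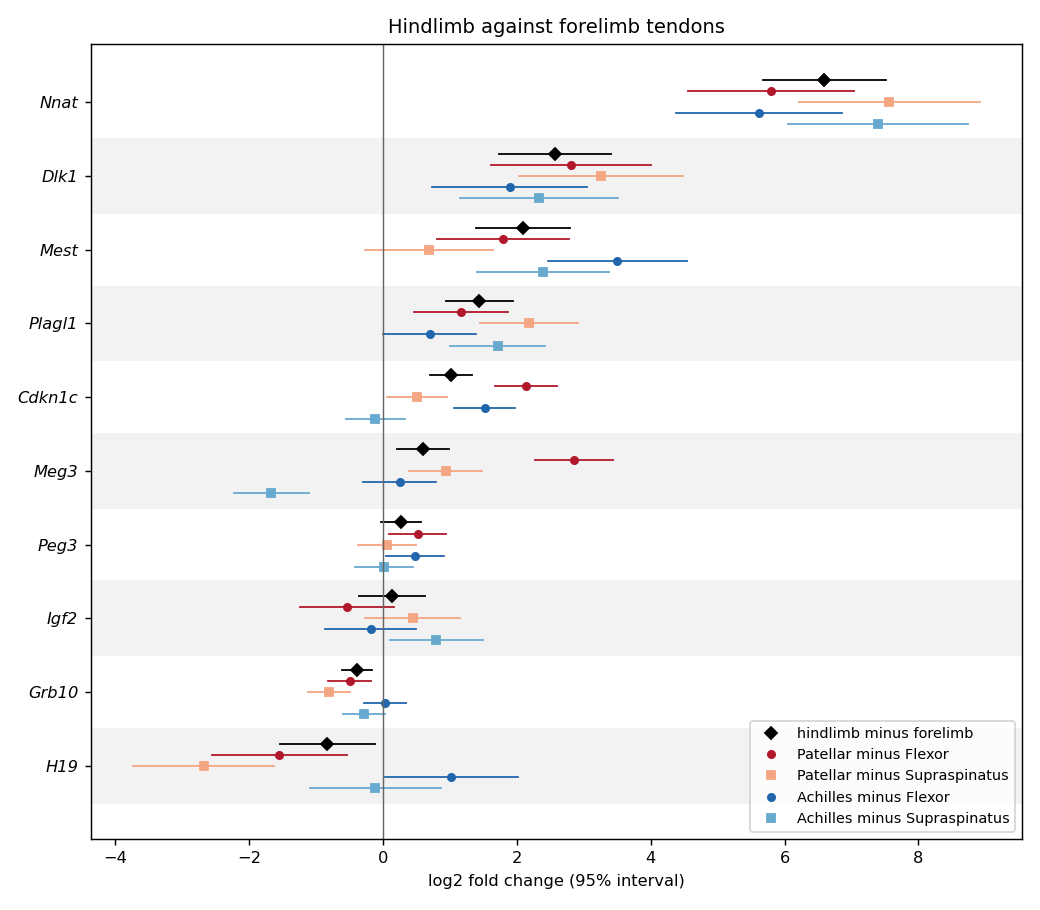
Log2 fold change of each gene from edgeR, with its 95% interval, for hindlimb minus forelimb (black diamonds) and for the 4 pairs of a hindlimb and a forelimb tendon. Nnat lies between 5.62 and 7.57 in the 4 pairs, while Meg3 runs between -1.67 and 2.86 and H19 between -2.68 and 1.02.

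The libraries also differed in their share of other tissues, which bears on every comparison of limbs. The 19 adipocyte markers together took 1.18, 3.68, 2.09 and 1.69% of counts in Patellar replicates 1 to 4, 1.81, 1.61, 1.30 and 2.26% in Achilles replicates 1 to 4, 0.216, 0.409, 0.216 and 0.204% in Supraspinatus replicates 1 to 4, and 0.619, 0.499, 0.417 and 0.390% in Flexor replicates 1 to 4. No adipocyte marker was at 0 in any tendon. Of the 19 markers, 18 were called higher and 1 lower (Slc2a4, the insulin-responsive glucose transporter of fat and muscle) in hindlimb minus forelimb, with a median log2 fold change of 3.496. The 30 skeletal muscle markers took 0.117 to 1.23% of counts in Patellar, 6.98 to 13.1% in Achilles, 18.5 to 19.8% in Supraspinatus and 10.03 to 14.1% in Flexor. The 10 neuron and endocrine markers took at most 0.00257% in Patellar, 0.00465% in Achilles, 0.00645% in Supraspinatus and 0.00596% in Flexor, so they were not higher in the hindlimb. In whole tendon RNA, fewer cells of a type and less RNA per cell cannot be told apart. These shares are percents of all counts, without TMM scaling. In Patellar, 7 rRNA-like genes took 13.2 to 42.0% of all counts, against at most 4.91% in the other tendons. How far they lowered the Patellar shares was not tested.

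Nnat went with the adipocyte share between limbs and over the libraries of each limb, with exceptions within tendons and among single markers. Achilles replicate 3 had the lowest Nnat level and the lowest adipocyte share of its tendon, and Patellar replicate 1 likewise in its own. Supraspinatus replicate 2 had the highest of both in its tendon. In Patellar, however, replicate 3 had the highest Nnat and replicate 2 the highest share. In Flexor, replicate 2 had the highest Nnat and replicate 1 the highest share. As a description, the correlation of log2 Nnat with the log2 adipocyte share was 0.85 (Spearman 0.86) over the 8 hindlimb libraries and 0.95 (Spearman 0.83) over the 8 forelimb libraries, where both come from the same libraries and so share their depth. The forelimb value also spans the gap between tendons, since Flexor was above Supraspinatus on average in both measures. Most markers taken singly were not called between these tendons. In Supraspinatus minus Flexor 14 of the 19 were not called, 3 rose and 2 fell, with a median log2 fold change of 0.088. Car3 averaged 2489 CPM in Flexor and 347 CPM in Supraspinatus. Adipoq averaged 47.0 and 41.3 CPM in the same order, and Fabp4 184 and 241 CPM. Over the 8 forelimb libraries, single markers correlated with Nnat at -0.47 (Thrsp) to 0.92 (Lep). With the mean log2 level of the adipocyte markers as a covariate, the log2 ratio of Nnat in hindlimb minus forelimb was 2.78 ± 0.53 (SE), against 6.59 without it. The adipocyte share itself did not overlap between limbs, so limb and fat content cannot be told apart in this fit. With the muscle markers as the covariate the log2 ratio of Nnat was 5.49 ± 0.60 (SE). The muscle share was at most 1.23% in Patellar and at least 6.98% in every library of the other tendons. Any fit with this covariate therefore cannot tell Patellar apart from low muscle content.

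**Figure D3:**
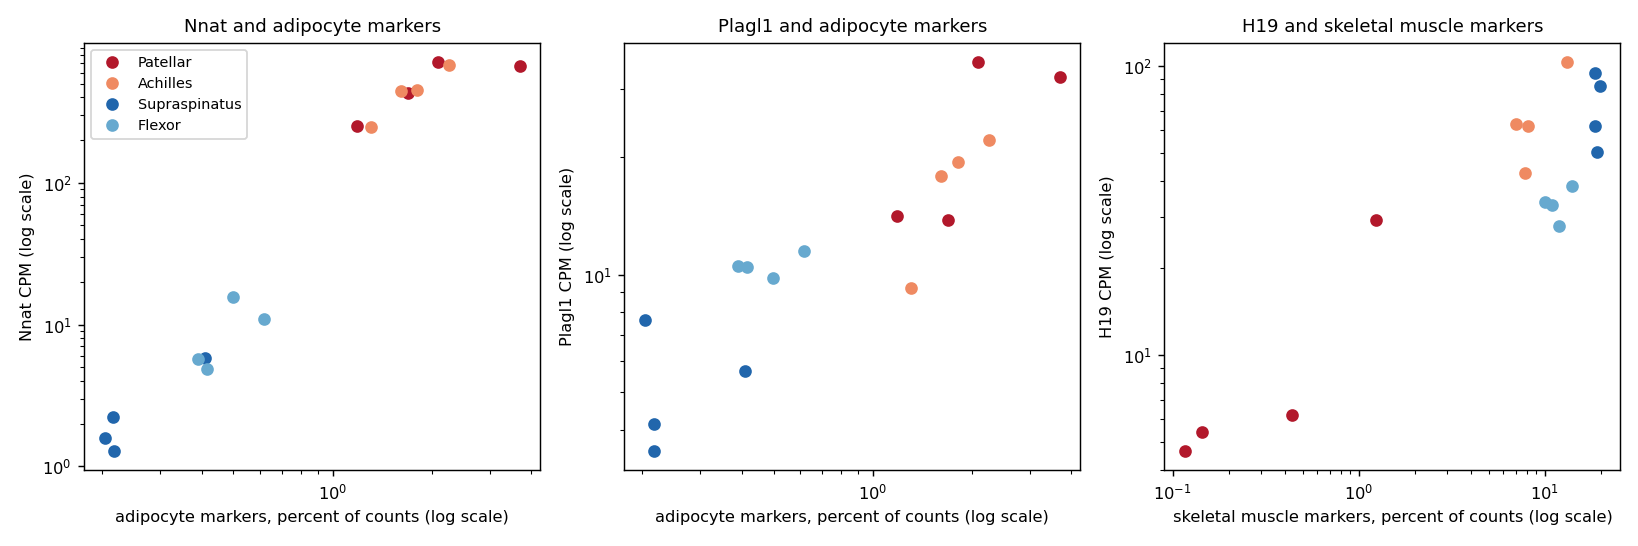
Level in CPM (log axis) against the percent of counts in a marker list (log axis), 1 point per library: Nnat and Plagl1 against adipocyte markers, H19 against skeletal muscle markers. The lowest adipocyte share in the hindlimb was 1.18% and the highest in the forelimb 0.619%; Patellar replicate 1, at 1.23% muscle markers, has the highest H19 of its tendon, 29.4 CPM.

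The genes most like Nnat in pattern included 3 of the adipocyte markers among the first 10 (Lep, Pparg and Lipe). The ranking runs over libraries that fall into separate limbs, so any gene that is high in the hindlimb ranks high. Among 9469 genes with a mean of at least 10 CPM, ranked by the correlation of log2 CPM with Nnat over 16 libraries, the highest were Lep (0.99), the adipocyte hormone leptin; Pparg (0.98), the transcription factor of adipocyte differentiation; Cd1d1 (0.98), which presents lipids to T cells; Aoc3 (0.98), an amine oxidase of adipocytes and smooth muscle; and Lgals12 (0.98), a galectin of lipid droplets. They were followed by Sncg (0.98), Lipe (0.98), the hormone-sensitive lipase, Ces1f (0.97), Aifm2 (0.97) and Adig (0.97). At the other end stood Igfn1 (-0.97), Wdfy1 (-0.97), Ston2 (-0.96), Pcgf3 (-0.96) and Eif1ax (-0.96). Of the 18 adipocyte markers that entered this ranking, 10 were among the first 100 genes. Lep itself measured 67.4 to 284 CPM in hindlimb libraries with a median of 178 CPM, and 1.59 to 10.9 CPM in forelimb libraries with a median of 3.92 CPM.

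Among the members, Plagl1 came closest to Nnat by this measure, at 0.85 (rank 206), followed by Dlk1 at 0.83 and Mest at 0.68. Cdkn1c had 0.47, Peg3 0.40, Igf2 0.19 and Meg3 0.13. H19 (-0.50) and Grb10 (-0.59) ran the other way. Between the limbs the 16 libraries form separate groups, and within limbs the values differed: over the 8 hindlimb and the 8 forelimb libraries the correlation was 0.90 and 0.69 for Plagl1, 0.78 and 0.03 for Dlk1, and 0.41 and -0.72 for Mest.

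Blcap, the host gene of Nnat, encodes an inhibitor of cell growth first described in bladder cancer. It measured 52.2 to 89.5 CPM in hindlimb libraries (median 65.0) and 29.1 to 43.6 CPM in forelimb libraries (median 34.6). The 8 hindlimb libraries all lay above the 8 forelimb libraries, as for Nnat, with a far smaller gap. It rose in hindlimb minus forelimb by a log2 fold change of 1.03 ± 0.13 (SE, edgeR adjusted p = 8.9e-06), and was called higher in each of the 4 pairs of a hindlimb and a forelimb tendon. Its correlation with Nnat was 0.93 (rank 53). The 2 genes share 0 exonic bases, but Nnat lies within the span of Blcap and the sources used here do not give the strand setting of the counting, so whether reads of unspliced Blcap RNA were counted for Nnat was not tested.

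Dlk1 and Igf2 are the ligand-like members, both paternally expressed. Dlk1 is a membrane protein with epidermal growth factor repeats, related to Notch ligands, and marks preadipocytes, whose differentiation it holds back. It measured 1.91, 14.5, 8.51 and 6.03 CPM in Patellar replicates 1 to 4, 5.56, 6.36, 1.31 and 3.11 CPM in Achilles replicates 1 to 4, 0.736, 0.432, 1.25 and 0.820 CPM in Supraspinatus replicates 1 to 4, and 0.793, 0.991, 1.03 and 1.58 CPM in Flexor replicates 1 to 4. All hindlimb libraries but Achilles replicate 3 were above all forelimb libraries. Dlk1 rose 5.96-fold in hindlimb minus forelimb (95% interval 3.33 to 10.7; log2 2.57 ± 0.40 SE, edgeR adjusted p = 6.96e-05). In Achilles minus Flexor the log2 fold change was 1.89 (edgeR adjusted p = 0.026), and this call was lost without Achilles replicate 1 or 2 or Flexor replicate 1, 2 or 3 (adjusted p = 0.0676 to 0.0756). With the adipocyte markers as a covariate the limb difference of Dlk1 was 1.88 ± 1.73 (SE, edgeR adjusted p = 0.636), and with the muscle markers 0.12 ± 0.49 (SE, edgeR adjusted p = 0.895). The adipocyte share divides by limb and the low muscle share by Patellar. Neither fit can therefore tell tissue content apart from limb or tendon.

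Igf2, the growth factor that drives growth before birth through the IGF1 receptor, was low everywhere. It ranged from 0.312 to 0.794 CPM in Patellar, 0.547 to 0.970 CPM in Achilles, 0.293 to 0.547 CPM in Supraspinatus and 0.661 to 0.961 CPM in Flexor, which is 9 to 98 counts per library. The limb difference of Igf2 was 0.13 ± 0.23 (log2, SE; interval -0.36 to 0.62; edgeR adjusted p = 0.671). Its 1 call over all 16 libraries was in Supraspinatus minus Flexor, where it fell by 0.98 on the log2 scale (edgeR adjusted p = 0.0357), a call lost without any 1 of 7 libraries: Achilles replicate 2, Flexor replicates 1, 2 and 3, and Supraspinatus replicates 1, 2 and 3 (adjusted p = 0.0518 to 0.114). Achilles minus Supraspinatus was 0.80 (edgeR adjusted p = 0.0724), and passed without Patellar replicate 3 (edgeR adjusted p = 0.0319). A same-strand gene covers 62.8% of its exonic bases in the annotation, so its counts are uncertain.

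Mest, paternally expressed, encodes a protein with an alpha/beta hydrolase fold that is linked in mice to the enlargement of adipocytes. It measured 4.73, 9.19, 15.9 and 13.2 CPM in Patellar replicates 1 to 4, 46.8, 32.9, 14.7 and 45.6 CPM in Achilles replicates 1 to 4, 5.16, 2.89, 4.97 and 13.6 CPM in Supraspinatus replicates 1 to 4, and 3.46, 2.83, 2.54 and 3.53 CPM in Flexor replicates 1 to 4. It was highest in Achilles, where all libraries were above all of Supraspinatus and Flexor. Unlike Nnat, Mest fell in Patellar minus Achilles, by 1.70 on the log2 scale (SE 0.46, edgeR adjusted p = 0.00785). In hindlimb minus forelimb it rose 4.27-fold (95% interval 2.64 to 6.92; log2 2.09 ± 0.33 SE, edgeR adjusted p = 8.11e-05), led by Achilles minus Flexor at 3.501 (edgeR adjusted p = 0.000213). Patellar minus Supraspinatus was 0.69 (edgeR adjusted p = 0.211), and 1.29 (edgeR adjusted p = 0.0167) without Supraspinatus replicate 4, the highest of its tendon; Achilles minus Supraspinatus was 2.39, and 3.01 without that library. Supraspinatus minus Flexor was 1.11 (edgeR adjusted p = 0.0834), 0.49 without that library, and passed without Supraspinatus replicate 2 (1.36, edgeR adjusted p = 0.0379). With the adipocyte markers as a covariate the limb difference was 0.75 (edgeR adjusted p = 0.831), and with the muscle markers 1.07 (edgeR adjusted p = 0.266). Mest and Copg2 overlap on opposite strands over 23.1% of the exonic bases of Mest; Copg2 itself measured 16.1 to 25.02 CPM in Patellar, 30.2 to 32.8 CPM in Achilles, 17.2 to 26.7 CPM in Supraspinatus and 25.5 to 32.8 CPM in Flexor.

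Plagl1, Peg3 and Cdkn1c act in the nucleus. Plagl1, paternally expressed, is a zinc finger transcription factor that in mice regulates other imprinted genes. It measured 14.2, 32.2, 35.1 and 13.8 CPM in Patellar replicates 1 to 4, 19.4, 17.9, 9.22 and 22.2 CPM in Achilles replicates 1 to 4, 4.14, 5.66, 3.53 and 7.63 CPM in Supraspinatus replicates 1 to 4, and 11.5, 9.83, 10.4 and 10.5 CPM in Flexor replicates 1 to 4. All hindlimb libraries but Achilles replicate 3 were above all forelimb libraries. Plagl1 rose 2.72-fold in hindlimb minus forelimb (95% interval 1.92 to 3.85; log2 1.44 ± 0.24 SE, edgeR adjusted p = 0.000122), while Achilles minus Flexor did not pass (0.70, edgeR adjusted p = 0.165). Its correlation with the adipocyte share was 0.80 over the 8 hindlimb and 0.75 over the 8 forelimb libraries. With the muscle share it was -0.61 and -0.81. The forelimb values also span the gap between Flexor and Supraspinatus, and the hindlimb muscle value that between Patellar and Achilles. Within Supraspinatus, replicate 4 had the highest Plagl1 and the lowest adipocyte share, 0.204%. Like Nnat, Plagl1 was lower in Supraspinatus than in Flexor, by a log2 fold change of -1.01 (edgeR adjusted p = 0.0324). That call was lost without any 1 of 7 libraries of these tendons, all but Supraspinatus replicate 4 (adjusted p = 0.0533 to 0.103). With the adipocyte markers as a covariate its limb difference was -0.67 (edgeR adjusted p = 0.665), and with the muscle markers 0.26 (edgeR adjusted p = 0.632).

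Cdkn1c, maternally expressed, is an inhibitor of cyclin-dependent kinases that stops the cell cycle. It measured 27.3, 22.7, 27.5 and 35.0 CPM in Patellar replicates 1 to 4, 18.8, 21.6, 12.8 and 19.97 CPM in Achilles replicates 1 to 4, 21.1, 21.5, 13.7 and 22.6 CPM in Supraspinatus replicates 1 to 4, and 8.34, 6.71, 5.72 and 4.77 CPM in Flexor replicates 1 to 4. Flexor stood below the 3 other tendons, whose libraries were all above its own. Cdkn1c rose 2.02-fold in hindlimb minus forelimb (95% interval 1.62 to 2.52; log2 1.01 ± 0.15 SE, edgeR adjusted p = 4.58e-05). It also rose in Supraspinatus minus Flexor, by 1.63 (edgeR adjusted p = 3.08e-05), and did not pass in Achilles minus Supraspinatus (-0.11, edgeR adjusted p = 0.725). In Patellar minus Supraspinatus it measured 0.51 (edgeR adjusted p = 0.0508), and in the authors' deposited table this difference was called, with a log2 fold change of 0.69. Without Achilles replicate 3, Patellar replicate 2, or Flexor replicate 1 or 4, it passed here too (adjusted p = 0.0303 to 0.0486). Patellar minus Achilles was 0.62 (edgeR adjusted p = 0.0284), and was lost without Achilles replicate 1 or 3 or Patellar replicate 1 or 4 (adjusted p = 0.0511 to 0.108). With the adipocyte markers as a covariate the limb difference of Cdkn1c was 0.40 (edgeR adjusted p = 0.738), and with the muscle markers 1.18 (edgeR adjusted p = 0.014). An antisense gene covers 30.7% of its exonic bases.

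Peg3, paternally expressed, is a zinc finger protein of the nucleus and one of the more abundant members. It ranged from 87.2 to 128 CPM in Patellar, 88.9 to 116 CPM in Achilles, 63.6 to 142 CPM in Supraspinatus and 59.4 to 88.1 CPM in Flexor, with overlap between all tendons except that all Achilles libraries were above all Flexor libraries. The limb difference of Peg3 was 0.27 ± 0.14 (log2, SE; interval -0.03 to 0.57; edgeR adjusted p = 0.134), and it passed without Supraspinatus replicate 1 (0.36, adjusted p = 0.0378). Its 1 call was in Patellar minus Flexor (0.52, edgeR adjusted p = 0.0437), lost without Patellar replicate 2 or 3, Achilles replicate 3, Supraspinatus replicate 2 or 3, or Flexor replicate 1, 3 or 4 (adjusted p = 0.0502 to 0.127). Supraspinatus minus Flexor was 0.46 (edgeR adjusted p = 0.11), and passed without Supraspinatus replicate 4 (0.63, edgeR adjusted p = 0.0172).

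Grb10 is an adaptor that binds the insulin and IGF1 receptors and damps their signal, and is maternally expressed outside the nervous system. It ranged from 49.9 to 84.0 CPM in Patellar, 86.7 to 104 CPM in Achilles, 109 to 123 CPM in Supraspinatus and 78.4 to 105 CPM in Flexor. Patellar was low and Supraspinatus high, with Achilles and Flexor between them. Grb10 fell in hindlimb minus forelimb, 1.31-fold lower (log2 -0.39 ± 0.11 SE, edgeR adjusted p = 0.00619). It also fell in Patellar minus Supraspinatus (-0.81), in Patellar minus Achilles (-0.53) and in Patellar minus Flexor (-0.50), with edgeR adjusted p of 0.000298, 0.011 and 0.011. Achilles minus Flexor was 0.028 (edgeR adjusted p = 0.929, interval -0.29 to 0.34). The fall in Patellar minus Flexor was lost with the 8 libraries of the pair alone (edgeR adjusted p = 0.0631) and with a mean of at least 5 CPM (edgeR adjusted p = 0.0574), and that filter also ended the call by limb (-0.24, edgeR adjusted p = 0.0516). With the muscle markers as a covariate the limb difference of Grb10 was -0.81 (edgeR adjusted p = 0.00773), and with the adipocyte markers -0.85 (edgeR adjusted p = 0.247).

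H19 and Meg3 are long noncoding RNAs, both maternally expressed. H19 is the host of miR-675 and is known in mouse muscle, where it stays on after birth. It measured 29.4, 4.66, 5.42 and 6.22 CPM in Patellar replicates 1 to 4, 62.2, 62.9, 103 and 42.5 CPM in Achilles replicates 1 to 4, 85.3, 50.3, 61.9 and 94.8 CPM in Supraspinatus replicates 1 to 4, and 38.6, 27.9, 32.9 and 33.9 CPM in Flexor replicates 1 to 4. Patellar was low, with replicate 1 apart from the other 3. H19 fell in Patellar minus Supraspinatus (-2.68), Patellar minus Achilles (-2.57) and Patellar minus Flexor (-1.54), with edgeR adjusted p of 0.000299, 0.000788 and 0.0135, and without Patellar replicate 1 these were -3.77, -3.68 and -2.67. With the 8 libraries of the pair alone, Patellar minus Flexor did not pass (-1.52, edgeR adjusted p = 0.052). Hindlimb minus forelimb was -0.83 ± 0.33 (SE, edgeR adjusted p = 0.0502), just outside the threshold; it passed without Patellar replicate 1 (-1.38, adjusted p = 2.29e-05), Achilles replicate 3 (-0.97, adjusted p = 0.03) or Supraspinatus replicate 2 (-0.91, adjusted p = 0.0436).

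Over the libraries of each limb, the levels of H19 went with the share of muscle markers. The correlation on the log2 scale was 0.97 over the 8 hindlimb and 0.86 over the 8 forelimb libraries, as a description. Both values also span the gap in muscle share between the tendons of a limb. Within Supraspinatus, replicate 4 had the lowest muscle share, 18.5%, and the highest H19, 94.8 CPM. In Flexor, replicate 4 had the lowest share, 10.03%, but not the lowest H19. Patellar replicate 1 had 1.23% muscle markers, against 0.117, 0.143 and 0.439% in the other Patellar libraries, and Achilles replicate 3, the highest H19 library of all, had 13.1%, against 6.98 to 8.10% in the other Achilles libraries. With the mean log2 level of the muscle markers as a covariate, H19 in Patellar minus Achilles was -0.03 (edgeR adjusted p = 0.981) and in hindlimb minus forelimb 0.78 (edgeR adjusted p = 0.112). Every Patellar library had a lower muscle share than every library of the other tendons. Patellar and low muscle content thus cannot be told apart in this fit. In that fit H19 rose in Achilles minus Flexor, by 1.17 (edgeR adjusted p = 0.00569), against 1.02 (edgeR adjusted p = 0.157) without the covariate. Achilles minus Flexor also passed without Patellar replicate 1 (1.01, edgeR adjusted p = 0.00878), as did Supraspinatus minus Flexor (1.10, edgeR adjusted p = 0.00293), which measured 1.13 (edgeR adjusted p = 0.0868) with that library.

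Meg3 is the noncoding RNA of the maternal copy of the domain that holds Dlk1. It measured 340, 238, 233 and 307 CPM in Patellar replicates 1 to 4, 42.3, 55.6, 43.0 and 42.6 CPM in Achilles replicates 1 to 4, 216, 66.1, 138 and 163 CPM in Supraspinatus replicates 1 to 4, and 39.1, 34.6, 33.2 and 47.0 CPM in Flexor replicates 1 to 4. Patellar and Supraspinatus were high and Achilles and Flexor low, so Meg3 did not divide by limb. Meg3 rose in Patellar minus Flexor (2.86), Patellar minus Achilles (2.61), Supraspinatus minus Flexor (1.92) and Patellar minus Supraspinatus (0.94), and fell in Achilles minus Supraspinatus (-1.67), with edgeR adjusted p of 8.12e-07, 5.16e-06, 4.91e-05, 0.00602 and 0.00018. Its call in hindlimb minus forelimb (0.60 ± 0.18, SE, edgeR adjusted p = 0.0128) averages differences of opposite sign. It was the only one of the 9 still called for limb with the adipocyte covariate (2.37 ± 0.47, SE, edgeR adjusted p = 0.0349), a fit that called 158 genes against 11387 without it. With the muscle covariate the limb difference of Meg3 did not pass (0.93, edgeR adjusted p = 0.0686).

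Rian and Mirg, the other noncoding RNAs of the domain, were high on average in Patellar and Supraspinatus and low in Achilles and Flexor, as Meg3 was, while Dlk1 was high in Patellar and Achilles. Rian and Mirg are read from the maternal copy and carry small nucleolar RNAs and microRNAs, Rtl1 is a paternally expressed gene derived from a retrotransposon, and Dio3 is a paternally expressed deiodinase of thyroid hormone. Rian averaged 39.9 ± 14.0 CPM in Patellar, 5.23 ± 0.52 CPM in Achilles, 35.7 ± 15.1 CPM in Supraspinatus and 5.79 ± 0.86 CPM in Flexor (SD, n = 4 each). Mirg averaged 12.8 ± 4.4 CPM in Patellar, 1.03 ± 0.10 CPM in Achilles, 3.51 ± 1.04 CPM in Supraspinatus and 0.956 ± 0.253 CPM in Flexor (SD, n = 4 each). Rian rose in Patellar minus Achilles by 2.93 and fell in Achilles minus Supraspinatus by 2.77 on the log2 scale, and Mirg rose by 3.63 and fell by 1.77 (edgeR adjusted p of at most 0.000222 in each).

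Rtl1, although paternally expressed like Dlk1, averaged 5.39 ± 2.74 CPM in Patellar, 0.476 ± 0.123 CPM in Achilles, 1.07 ± 0.58 CPM in Supraspinatus and 0.336 ± 0.146 CPM in Flexor (SD, n = 4 each), and rose in Patellar minus Achilles by 3.496 (edgeR adjusted p = 7.04e-05). MicroRNAs of the opposite strand lie in its exon, so reads of the maternal RNA cannot be told apart from its own without strand. Dio3 ranged from 0.108 to 0.574 CPM in Patellar, 0.340 to 1.56 CPM in Achilles, 0.0911 to 1.75 CPM in Supraspinatus and 0.561 to 1.12 CPM in Flexor, and did not pass in hindlimb minus forelimb (-0.86, edgeR adjusted p = 0.15); it fell in Patellar minus Supraspinatus by 1.79 on the log2 scale (edgeR adjusted p = 0.0411).

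**Figure D4:**
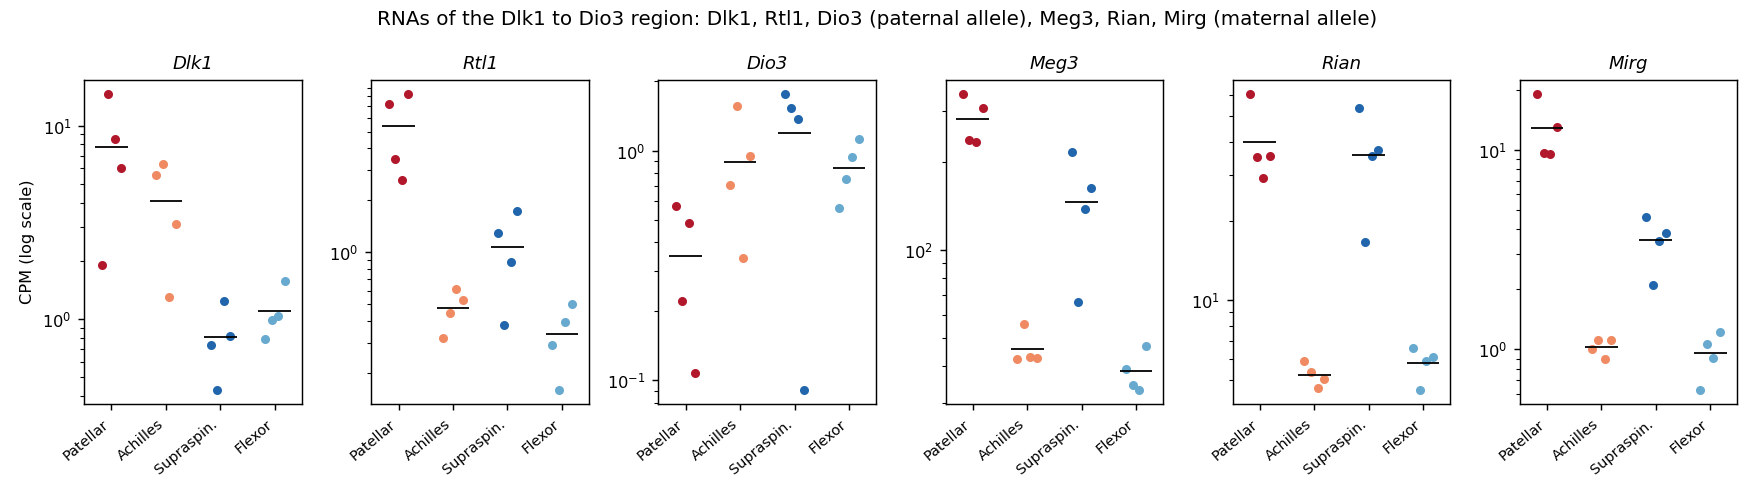
Levels in CPM (log axis, a separate scale per gene) of 6 RNAs of the Dlk1 to Dio3 region in 4 tendons; points are libraries and lines are means of 4. Meg3, Rian and Mirg are high in Patellar and Supraspinatus (means of 280 and 146 CPM for Meg3) and low in Achilles and Flexor (45.9 and 38.5 CPM), while Dlk1 averages 7.73 and 4.09 CPM in Patellar and Achilles and 0.808 and 1.10 CPM in Supraspinatus and Flexor.

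Across other imprinted genes there was no common direction by limb. Of 67 listed, 65 were in the table and 60 were tested, and in hindlimb minus forelimb 16 rose and 17 fell, 55.0%, against 47.9% of all genes, with a median log2 fold change of -0.08. Of the 23 tested genes known as paternally expressed, 4 rose and 5 fell, with a median of -0.14, and of the 37 known as maternally expressed 12 rose and 12 fell, with a median of 0.05. Of the 19 partners that share a domain with a member, 16 were tested, 7 rose and 3 fell, with a median of 0.41. By pair, 14 of the 60 rose and 19 fell in Patellar minus Flexor (50.3% of all genes called), and 15 rose and 20 fell in Patellar minus Supraspinatus (53.3% of all genes called). In Achilles minus Flexor 5 rose and 1 fell (16.2% of all genes called), and in Achilles minus Supraspinatus 13 rose and 16 fell (33.6% of all genes called). Within limbs 9 rose and 19 fell in Patellar minus Achilles, with 38.4% of all genes called, and 16 rose and 11 fell in Supraspinatus minus Flexor, with 27.1% of all genes called.

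Among other imprinted genes with a mean of at least 1 CPM, the 10 with the smallest adjusted p were 7 that fell and 3 that rose (Blcap, Slc22a3 and Ppp1r9a); Klf14, which rose, and Calcr, which fell, had adjusted p in the same range and are below that floor. Asb4, a maternally expressed subunit of a ubiquitin ligase, measured 0.0269 to 0.528 CPM in Patellar, 3.71 to 8.30 CPM in Achilles, 17.0 to 23.1 CPM in Supraspinatus and 5.67 to 9.58 CPM in Flexor, and fell by 3.37 on the log2 scale in hindlimb minus forelimb (SE 0.31, edgeR adjusted p = 5.67e-07). Slc38a4, a paternally expressed amino acid transporter, measured 0.592 to 5.94 CPM in Patellar, 5.53 to 16.003 CPM in Achilles, 68.9 to 131 CPM in Supraspinatus and 18.5 to 36.5 CPM in Flexor, and fell by 3.24 (SE 0.35, edgeR adjusted p = 2.16e-06). In both, Patellar was lowest on average and Supraspinatus highest, with all Supraspinatus libraries above the rest. Patellar and Achilles overlapped in Slc38a4 and not in Asb4. Achilles and Flexor overlapped in Asb4, with means of 5.60 and 7.18 CPM, and not in Slc38a4. Asb4 thus did not divide by limb in every library. Snrpn, a paternally expressed splicing protein, fell by 1.73 (edgeR adjusted p = 3.91e-07), and Igf2r, the maternally expressed receptor that clears IGF2, fell by 0.84 (edgeR adjusted p = 4.61e-06). Igf2r measured 28.6 to 38.6 CPM in Patellar, 37.4 to 55.3 CPM in Achilles, 100 to 134 CPM in Supraspinatus and 41.8 to 53.3 CPM in Flexor. It was thus high in Supraspinatus alone, and Achilles and Flexor overlapped. Smaller falls were those of Nap1l4 (-0.75), Pon2 (-0.55) and Trappc9 (-0.55).

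Besides Blcap, Slc22a3, a transporter of organic cations that is maternally expressed in the mouse placenta, measured 4.02 to 40.9 CPM in Patellar, 7.71 to 29.5 CPM in Achilles, 0.325 to 1.17 CPM in Supraspinatus and 2.42 to 5.54 CPM in Flexor, and rose by 3.41 (SE 0.42, edgeR adjusted p = 8.69e-06). Its order of tendons was that of Nnat, with Flexor above Supraspinatus. Ppp1r9a, a regulator of protein phosphatase and actin, rose by 1.69 (edgeR adjusted p = 2.32e-06). Klf14, a maternally expressed transcription factor near Mest known for its link to fat, had all 8 hindlimb libraries (0.138 to 1.26 CPM) above all 8 forelimb libraries (0.0200 to 0.0535 CPM) and rose by 4.18 (SE 0.42, edgeR adjusted p = 1.27e-06) at levels near 1 CPM and below; it was named after its values were seen.

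**Figure D5:**
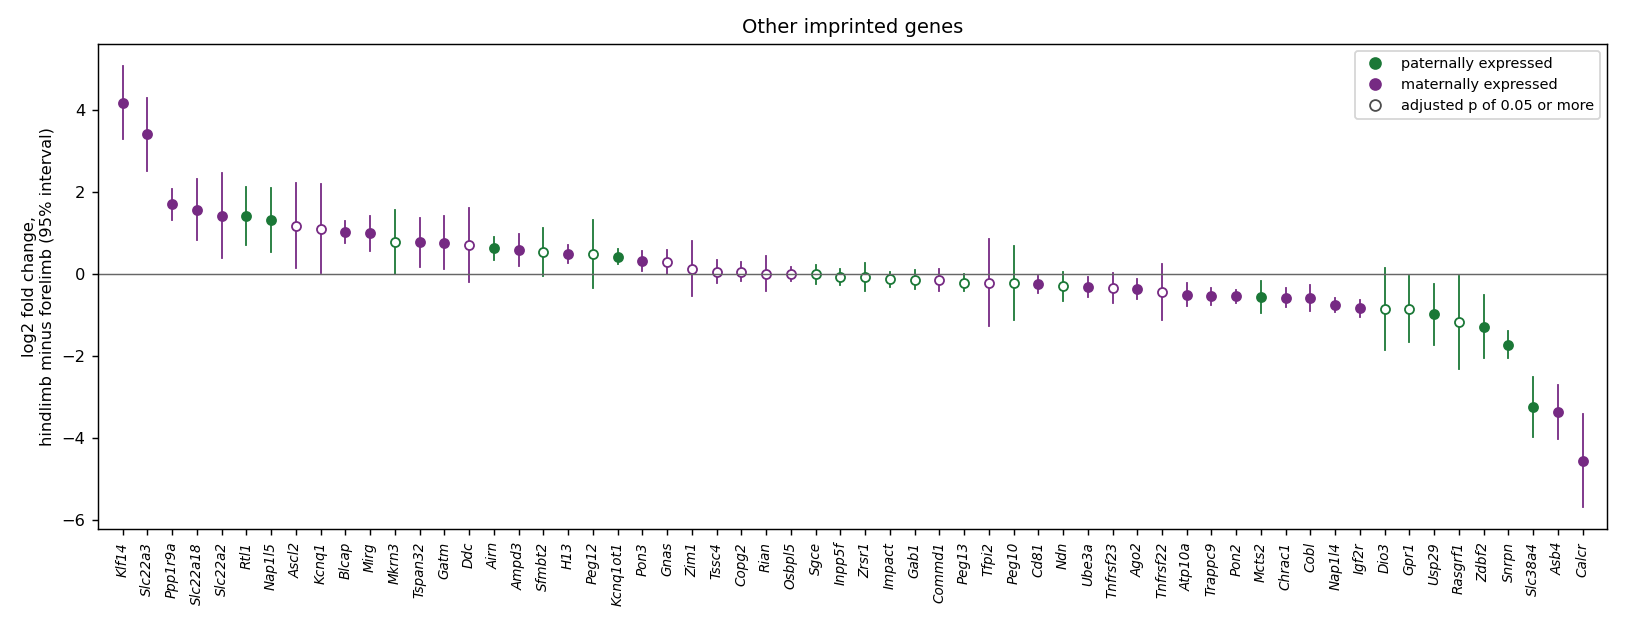
Log2 fold change of hindlimb minus forelimb with its 95% interval for the 60 other imprinted genes tested, sorted, coloured by the parental copy that is expressed; open points did not pass an adjusted p of 0.05. Filled points lie on both sides of 0, 16 above and 17 below, from Klf14 at 4.18 to Calcr at -4.56, a fitted value that depends on the prior count since Calcr had 0 counts in Patellar.

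The signalling partners of Igf2 and Grb10 were counted as a list of 25 genes of the insulin-like growth factor axis, of which 24 were tested, Igf2 itself among them. In hindlimb minus forelimb 9 rose and 2 fell, 45.8% of those tested against 47.9% of all genes, with a median log2 fold change of 0.10. Igf1, the growth factor that takes over from Igf2 after birth, measured 283 to 419 CPM in Patellar, 73.7 to 177 CPM in Achilles, 51.2 to 202 CPM in Supraspinatus and 58.8 to 126 CPM in Flexor, and rose by 1.39 (SE 0.28, edgeR adjusted p = 0.000696). Patellar was above all other tendons in every library. Of the binding proteins, Igfbp4 rose by 2.04 (edgeR adjusted p = 2.79e-06), Igfbp5 by 0.54 and Igfbp7 by 0.45, and Igfals, which stabilises the circulating complex, rose by 2.72 (edgeR adjusted p = 1.91e-05). Igfbp4 measured 382 to 705 CPM in Patellar, 401 to 746 CPM in Achilles, 35.0 to 90.3 CPM in Supraspinatus and 272 to 393 CPM in Flexor, so Supraspinatus was low. The others that rose were Pappa2 (1.37) and Htra1 (0.34), proteases that cut binding proteins, Stc2 (0.71), an inhibitor of such proteases, and Igf2bp2 (0.76), which binds RNA. Not all of these divided by limb. Igfbp7 averaged 709 CPM in Patellar, 177 CPM in Achilles, 642 CPM in Supraspinatus and 105 CPM in Flexor. Htra1 averaged 275, 105, 204 and 88.1 CPM in the same order. In both, Achilles was below Supraspinatus, so the limb call averages differences of opposite sign. Pappa2 averaged 1.39 CPM in Patellar, below 2.20 CPM in Supraspinatus. Stc2 averaged 4.40 CPM in Patellar and 4.48 CPM in Supraspinatus, with 7.16 CPM in Achilles and 2.63 CPM in Flexor. The receptors Igf2r and Igf1r fell, by 0.84 and 0.24 (edgeR adjusted p = 4.61e-06 and 0.0324), and the adaptor Grb2 did not pass (-0.06). Igf2r was high in Supraspinatus alone. Igf1r averaged 29.4 CPM in Achilles, against 38.2 CPM in Patellar, 40.1 CPM in Supraspinatus and 39.0 CPM in Flexor, so it was low in Achilles alone.

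For Dlk1, the list of Notch receptors, ligands and targets held 12 genes, all tested. In hindlimb minus forelimb 5 rose (Notch1, Notch3, Notch4, Jag1 and Hes1), 1 fell (Jag2) and 6 did not pass, so 6 of 12 were called, where 47.9% of all genes were, with a median log2 fold change of 0.13. The receptor Notch3, also a marker of pericytes, rose by 0.82 (edgeR adjusted p = 0.015) and the receptor Notch4 by 0.69 (edgeR adjusted p = 0.00226). The ligand Jag1 rose by 0.59 (edgeR adjusted p = 0.0102), and the target Hes1 by 0.43 (edgeR adjusted p = 0.0345). Hes1 averaged 21.8 CPM in Patellar, 9.74 CPM in Achilles, 12.1 CPM in Supraspinatus and 9.70 CPM in Flexor, so it was high in Patellar alone. In the same order Notch4 averaged 8.74, 6.78, 8.14 and 2.80 CPM, low in Flexor alone. Notch1 averaged 25.9, 40.2, 23.2 and 24.8 CPM, highest in Achilles. Dlk2, the closest relative of Dlk1, did not pass (-0.17, edgeR adjusted p = 0.844). Notch3 measured 14.2 to 56.6 CPM in Patellar, 70.2 to 119 CPM in Achilles, 19.2 to 47.3 CPM in Supraspinatus and 26.1 to 34.6 CPM in Flexor, so it was high in Achilles alone. The 10 pericyte and smooth muscle markers took 0.0734% of counts in Patellar, 0.296% in Achilles, 0.0614% in Supraspinatus and 0.284% in Flexor, and their part in the result was not tested.

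Libraries held 34559686 to 63235636 counts in Patellar, 84414005 to 97180849 in Achilles, 86898889 to 107805065 in Supraspinatus and 97242489 to 106573353 in Flexor, so the Patellar values rest on fewer reads. The 12 tenocyte markers, among them Scx, Tnmd and Mkx, were present in all tendons and took 4.37 ± 1.56% of counts in Patellar, 2.17 ± 0.93% in Achilles, 1.70 ± 1.02% in Supraspinatus and 1.87 ± 0.11% in Flexor (SD, n = 4 each). Patellar libraries also stood apart from the rest in the share of 7 rRNA-like genes, which was 29.7 ± 12.1% in Patellar, 4.18 ± 0.67% in Achilles, 3.27 ± 0.33% in Supraspinatus and 2.17 ± 0.27% in Flexor (SD, n = 4 each), and their part in the Patellar differences was not tested beyond leaving those genes out, which changed no call among the 10 genes. Without the Patellar libraries in the fit, Achilles minus Flexor and Achilles minus Supraspinatus kept the direction of every member called there.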

How the data were processed

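Per the labels' protocols, RNA of 4 tendons was purified on micro columns with DNase I and sequenced as Illumina libraries, 4 per tendon. Per the submitters' processing notes, the tools included HISAT2, FastQC and edgeR, and the build was mm10; the sources used here do not name the counter, strand setting, annotation or versions. The authors deposited whole-number read counts for 41204 genes without normalization, used as deposited. Their deposited table of log2 fold changes, p-values and log2 CPM (13452 genes, 9 of the 10 members) was only set beside the values here: of 48 comparisons of members other than Nnat, all 48 had the same sign, 28 were called in both, 1 only there and 0 only here.

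The fit used edgeR 4.0.16 in R 4.3.3: filterByExpr by tendon (23754 genes kept), TMM, a robust quasi-likelihood fit with 1 mean per tendon over 16 libraries, 7 two-sided contrasts, and Benjamini-Hochberg adjustment within each at 0.05. Each SE was taken from the log2 fold change and its F statistic. A prior count of 2 was added for log2 CPM. Total counts ranged from 34559686 to 107805065. The fit was tested on simulated counts. Alternatives were DESeq2 1.42.0, median-ratio size factors, the table unfiltered, a floor of 5 CPM on the mean, the mouse number as a block, marker covariates, leaving out rRNA-like genes, the 8 libraries of a pair alone, each library left out, and, added after the data were seen, no Patellar libraries. Exon lengths and overlaps come from GENCODE M21 and promoter windows from RefSeq, both GRCm38. Figures used matplotlib 3.10.9 in Python 3.11.15.

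The members and lists were chosen with earlier results of these data known. Named genes are all 10 members; from partners and IGF axis genes, any called in hindlimb minus forelimb with a mean of at least 1 CPM; the 10 other imprinted genes with the smallest adjusted p there, also with a mean of at least 1 CPM; and the 10 genes most and 5 least correlated with Nnat. The genes named besides these (Klf14, Calcr, Copg2, Rian, Dio3, Grb2 and the Notch genes) were chosen after their values were seen. Within a tendon replicates are separately numbered mice. The labels do not say whether equal numbers in different tendons are the same mouse.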

Additional observations from a re-analysis of the deposited data

Results flagged for a closer look

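Dixon's test picked out 3 of 40 groups of 4 libraries among the 10 genes, and chance gives about 1 in 20. Patellar replicate 1 had 29.4 CPM of H19, far above the other 3 Patellar libraries (4.66 to 6.22 CPM). It also had the highest share of muscle markers of its tendon, 1.23%. Achilles replicate 2 had 55.6 CPM of Meg3, above the other 3 Achilles libraries (42.3 to 43.0 CPM). Supraspinatus replicate 3 had 13.7 CPM of Cdkn1c, below the other 3 Supraspinatus libraries (21.1 to 22.6 CPM).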

How the results depend on the processing

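Depth limits Igf2, with 9 to 98 counts per library; Igf2 and Dlk1 drop out under a mean of at least 5 CPM. The hindlimb contrast was not fitted in the 8-library fits or without Patellar. The cause of the changes below was not tested unless stated.

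Genes called over the whole table changed by over 1.5 times as follows. With a mean CPM of at least 5, which tests 11298 genes, 6430 were called in hindlimb minus forelimb, 6904 in Patellar minus Flexor, 7095 in Patellar minus Supraspinatus, 4720 in Achilles minus Supraspinatus and 5613 in Patellar minus Achilles. With the muscle covariate there were 5097, 5002, 4422 and 3803 in hindlimb minus forelimb, Patellar minus Flexor, Patellar minus Supraspinatus and Patellar minus Achilles. With the adipocyte covariate there were 158, 1484, 2127, 161 and 871 in hindlimb minus forelimb, Patellar minus Flexor, Patellar minus Supraspinatus, Achilles minus Flexor and Achilles minus Supraspinatus. Achilles minus Flexor gave 6580 with its 8 libraries alone and 6960 without Patellar, and Patellar minus Achilles 5854 with its 8 libraries alone.

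Of the 9 members tested, 2, 3, 1 and 3 were called with the muscle covariate in hindlimb minus forelimb, Patellar minus Flexor, Patellar minus Supraspinatus and Patellar minus Achilles, and 1, 1, 1, 1 and 0 with the adipocyte covariate in hindlimb minus forelimb, Patellar minus Flexor, Patellar minus Supraspinatus, Achilles minus Flexor and Achilles minus Supraspinatus. With 8 libraries alone, 6 were called in Achilles minus Flexor and 7 in Supraspinatus minus Flexor, and without Patellar 7 in Supraspinatus minus Flexor.
Of the 60 other imprinted genes, 20 and 23 were called with a mean CPM of at least 5 in hindlimb minus forelimb and Patellar minus Supraspinatus. With the muscle covariate 18, 16, 10 and 12 were called in hindlimb minus forelimb, Patellar minus Supraspinatus, Achilles minus Flexor and Patellar minus Achilles. With the adipocyte covariate 1, 10, 13, 0 and 2 were called in hindlimb minus forelimb, Patellar minus Flexor, Patellar minus Supraspinatus, Achilles minus Flexor and Achilles minus Supraspinatus. Achilles minus Flexor gave 10 in DESeq2, 12 with 8 libraries alone and 12 without Patellar.

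With the muscle covariate the log2 fold changes whose sign turned were, in hindlimb minus forelimb, Peg3 -0.12, H19 0.78 and Igf2 -0.29; in Achilles minus Flexor, Grb10 -0.013; in Achilles minus Supraspinatus, Peg3 -0.10 and H19 0.42; in Patellar minus Flexor, Peg3 -0.14, H19 1.14, Dlk1 -1.27 and Plagl1 -0.82; in Patellar minus Supraspinatus, Peg3 -0.68, H19 0.39, Igf2 -0.34, Dlk1 -1.33, Mest -1.22 and Plagl1 -0.022; in Patellar minus Achilles, Nnat -1.53, Peg3 -0.58, Dlk1 -2.83 and Plagl1 -1.37; and in Supraspinatus minus Flexor, Dlk1 0.060. Of these, Dlk1 in Patellar minus Achilles was called (edgeR adjusted p = 0.0249).
With the adipocyte covariate they were, in hindlimb minus forelimb, Peg3 -0.16, H19 1.83, Igf2 -0.14 and Plagl1 -0.67; in Achilles minus Flexor, Grb10 -0.37 and Plagl1 -1.16; in Achilles minus Supraspinatus, Peg3 -0.38, H19 2.43, Meg3 0.034 and Plagl1 -0.22; in Patellar minus Flexor, H19 1.22 and Plagl1 -1.13; in Patellar minus Supraspinatus, Peg3 -0.42, H19 0.21, Mest -0.82, Cdkn1c -0.18 and Plagl1 -0.19; and in Patellar minus Achilles, Nnat -0.62 and Peg3 -0.047.
Elsewhere Peg3 turned without the filter in Patellar minus Supraspinatus (-0.011) and Patellar minus Achilles (-0.030) and without Patellar in Achilles minus Supraspinatus (-0.0026), and H19 (0.018) and Cdkn1c (0.015) turned in Achilles minus Supraspinatus with a mean CPM of at least 5, a filter that shifted listed genes by a median of 0.15 (log2) in hindlimb minus forelimb and took the limb call from Grb10 (-0.24, edgeR adjusted p = 0.0516) and gave it to Peg3 (0.42, edgeR adjusted p = 0.0171). H19 was called lower by limb in DESeq2 (adjusted p = 0.0376).

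The labels number the mice within each tendon and do not say whether equal numbers are the same animal. Deviations of same-numbered libraries correlated at -0.135 to 0.255 (2 of 24 pairs over 0.1). Low values cannot settle this, because differences in dissection between libraries of 1 animal would also lower them. With the number as a replicate block, 10848 genes were called in hindlimb minus forelimb, H19 passed there (-0.95, edgeR adjusted p = 0.0208) and Cdkn1c passed in Patellar minus Supraspinatus (edgeR adjusted p = 0.035); no other call of a member changed.

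Leaving out 1 library gave 2520 (without Flexor replicate 2) to 5358 (without Patellar replicate 3) genes called in Achilles minus Flexor, 2 (without Flexor replicate 1, 2 or 3 or Supraspinatus replicate 1 or 3) to 5 (without Patellar replicate 1) members in Supraspinatus minus Flexor, and 3 (without Flexor replicate 3 or 4) to 9 (without Patellar replicate 3) other imprinted genes in Achilles minus Flexor; other counts stayed within 1.5 times. Signs turned in leave-one-out fits for Nnat (-0.048 to 0.44) and Peg3 (-0.060 to 0.10) in Patellar minus Achilles, Peg3 (-0.15 to 0.22), H19 (-0.39 to 0.066) and Cdkn1c (-0.25 to 0.025) in Achilles minus Supraspinatus, Peg3 (-0.12 to 0.25) in Patellar minus Supraspinatus and Grb10 (-0.023 to 0.10) in Achilles minus Flexor.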
